A study of Saccharomyces cerevisiae with 2 samples.

Results

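The genes described here encode the subunits of the RNA polymerases I, II and III of the yeast Saccharomyces cerevisiae. They were found by gene name, as the names that begin with RPA, RPB or RPC and end in a number, together with RPO21, RPO26, RPO31 and RET1. The rule found 31 of the 7126 rows of the table, and in all 31 the mean of both libraries was 1 TPM or more. TPM, the deposited unit, is an estimated level per gene that is corrected for length and scaled within a library.

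The study compared the carotenoid-producing strain BL03-D-4 in YPD, which the paper's text names YPD2, and in the modified medium YPM. Each medium gave 1 library, made from polyA-selected RNA of cells grown for 24 h, so no difference below has a replicate check. BL03-D-4 derives from BY4742. In both libraries it carries PHSP26-CrtB, PHSP26-CrtI and PHSP26-CrtE (carotenoid genes behind the HSP26 promoter) in place of Gal80. It also carries PCit1-tHMGR, a truncated HMG-CoA reductase gene behind the CIT1 promoter, at Δ416d, and a deletion of Ald6. GAL80 and ALD6 were listed at 0 TPM in both libraries, and crtB, crtI and crtE had rows between 4009 and 15061 TPM. YPM had yeast extract of another manufacturer and lot than YPD and was given added phosphate and sulfate salts and trace metals, and the parts of these cannot be told apart. Both libraries summed to almost the same total, 937091 TPM in YPD and 925918 TPM in YPM. TPM gives a share of the RNA in a library, so a lower share and less of that RNA per cell cannot be told apart.

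RNA polymerase I transcribes the precursor of the large ribosomal RNAs. RNA polymerase II transcribes messenger RNAs, and RNA polymerase III makes transfer RNAs, the small ribosomal RNA that is not cut from that precursor, and other short RNAs. The enzymes share a core: some subunits are common to all of them, some only to RNA polymerases I and III, and others have a counterpart in each enzyme. In yeast, output of RNA polymerases I and III follows growth and nutrients through TOR signalling and is low in cultures that have stopped growing. The paper calls the cultures of both media stationary at about 24 h and reports more final cell mass in YPM than in YPD2. How growth bears on the levels below was not tested. The letter in a gene name does not always give the enzyme, since RPC10, RPB5, RPB8 and RPB10 encode subunits of all 3 enzymes and RPC40 and RPC19 encode subunits of both I and III. The genes were therefore grouped by known subunit composition, which gave 7 genes for Pol I only, 7 for Pol II only, 10 for Pol III only, 2 shared by Pol I and III, and 5 shared by all 3.

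Most genes of Pol III only and of Pol I only were listed lower in YPM than in YPD, while those of Pol II only were listed at almost the same level. The median log2 ratio of YPM over YPD, with 1 TPM added to both values, was -0.44 for Pol III only, -0.35 for Pol I only and -0.54 for the pair shared by both. It was -0.06 for Pol II only and -0.22 for the subunits shared by all 3, against -0.13 over the 6350 rows whose mean reached 1 TPM. Summed TPM was 28.2% lower in YPM for Pol III only (403 and 290 TPM in YPD and YPM), 18.1% lower for Pol I only (212 and 173 TPM) and 3.52% lower for Pol II only (548 and 529 TPM). Setting the median row (of rows whose mean reached 10 TPM) to no change moved the median of Pol II only to 0.07, above 0, while the medians of Pol I only, of Pol III only and of the pair shared by both stayed below 0, between -0.22 and -0.41.

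The differences were small. None of the 31 subunits reached a 2-fold difference in either direction, which 8.43% of all rows did (5.15% lower and 3.28% higher). A 1.5-fold lower value was reached by 4 subunits, or 12.9% of them, against a background of 14.9% of all rows, so this count is no result about the subunits. RPO31, RPB8 and RPC40 lay just short of 1.5-fold, and without the added 1 TPM the count was 7, or 22.6%, against 15.5% of all rows, so the side on which the subunits fell depended on the added value. No subunit was higher by 1.5-fold, against 7.87% of all rows. All rows were also ordered by log2 ratio. In the lowest 25% of rows there were 7 of the 10 genes of Pol III only, 2 of the 7 of Pol I only, both genes shared by Pol I and III, and 2 of the 5 shared by all 3. For Pol I only this was near the share of all rows. RPC11 and RPC82 lay just inside the limit of -0.41, and with 5 TPM added the count of Pol III only was 6. None of the 7 genes of Pol II only was in the lowest 25%, and none of the 31 genes was in the highest 25%. Below the median of all rows, which 50% of rows are by construction, were 8 genes of Pol III only, 6 of Pol I only and none of Pol II only. RPA49, RPA14 and RPC17 lay just below that median, and RPA43, RPC53 and RET1 lay above it. With rows under 1 TPM kept in the background, its median was -0.08 and 3 of the 7 genes of Pol II only, RPB7, RPB9 and RPB4, were below it, beside 9 of Pol III only and 6 of Pol I only.

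**Figure D1:**
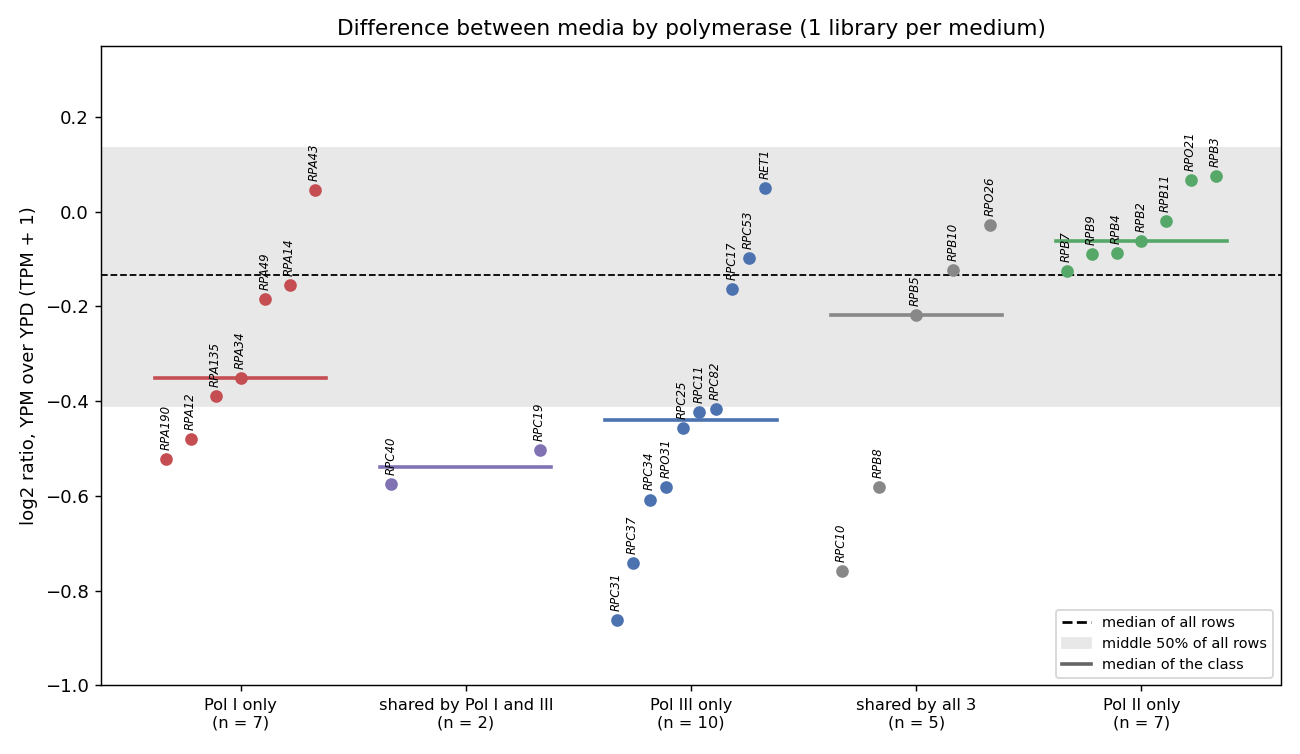
Log2 ratio of YPM over YPD after adding 1 TPM (vertical axis) for each of the 31 subunit genes, grouped by enzyme (horizontal axis); coloured bars are class medians, the dashed line is the median of all 6350 rows (-0.13) and the grey band holds their middle 50%. All 7 genes of Pol II only lie inside the band and above the dashed line, and 7 of the 10 genes of Pol III only lie below the band.

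Among the genes of Pol III only, the 3 with the largest differences were RPC31, RPC37 and RPC34. RPC31 (YNL151C) was listed at 59.8 TPM in YPD and 32.5 TPM in YPM, with a log2 ratio of -0.86, and only 7.15% of all rows had a lower ratio. RPC34 (YNR003C) was listed at 39.1 and 25.3 TPM, with a log2 ratio of -0.61. RPC82 (YPR190C) was listed at 26.4 and 19.6 TPM, with a log2 ratio of -0.42. The proteins of RPC31, RPC34 and RPC82 form a subcomplex found in Pol III alone that takes part in initiation, and all of its genes were lower in YPM. RPC37 (YKR025W) was listed at 72.4 and 42.9 TPM, with a log2 ratio of -0.74. RPC53 (YDL150W) was listed at 25.1 and 23.4 TPM, with a log2 ratio of -0.10. Rpc37 and Rpc53 form a pair that acts in termination and reinitiation, and the difference was larger for RPC37.

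RPO31 (YOR116C), the largest subunit of Pol III, was listed at 32.2 TPM in YPD and 21.2 TPM in YPM, with a log2 ratio of -0.58. RET1 (YOR207C), the second largest, was listed at 44.0 and 45.6 TPM, with a log2 ratio of 0.05. These proteins together form the active centre, and RET1 was the gene of Pol III only with the highest ratio. RPC25 (YKL144C) and RPC17 (YJL011C) encode the stalk, which contacts initiation factors and the new RNA. RPC25 was listed at 27.1 and 19.5 TPM, with a log2 ratio of -0.46, and RPC17 at 16.7 and 14.8 TPM, with a log2 ratio of -0.16. RPC11 (YDR045C), which is needed for RNA cleavage by the enzyme, was listed at 60.6 and 45.0 TPM, with a log2 ratio of -0.42. RET1 alone of the 10 genes was above 0, but the median of all rows was itself below 0, at -0.13. Below that median were 8 of the 10 genes, against 50% of all rows. With the median row set to no change, RPC53 was above 0 as well, at 0.03.

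Among the genes of Pol I only, that of the largest subunit had the lowest ratio. RPA190 (YOR341W) was listed at 25.3 TPM in YPD and 17.3 TPM in YPM, with a log2 ratio of -0.52. RPA135 (YPR010C), the second largest subunit, was listed at 27.6 and 20.8 TPM, with a log2 ratio of -0.39. Both catalytic subunits were thus lower in YPM. RPA12 (YJR063W), needed for RNA cleavage by Pol I, was listed at 20.1 and 14.1 TPM, with a log2 ratio of -0.48. RPA34 (YJL148W) and RPA49 (YNL248C) encode a pair that resembles the Pol II factor TFIIF. RPA34 was listed at 35.9 and 27.9 TPM, with a log2 ratio of -0.35, and RPA49 at 23.2 and 20.3 TPM, with a log2 ratio of -0.18. The stalk genes RPA14 and RPA43 showed the smallest differences of Pol I only. RPA14 (YDR156W) was listed at 69.4 and 62.3 TPM, with a log2 ratio of -0.15. RPA43 (YOR340C), which binds the initiation factor Rrn3, was listed at 10.2 and 10.6 TPM, with a log2 ratio of 0.05. It was the subunit gene with the lowest level in both libraries, and with the median row set to no change it stood at 0.17.

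RPC40 and RPC19 encode the assembly platform on which both Pol I and Pol III are built. RPC40 (YPR110C) was listed at 69.8 TPM in YPD and 46.5 TPM in YPM, with a log2 ratio of -0.58. RPC19 (YNL113W) was listed at 60 and 42.0 TPM, with a log2 ratio of -0.50. Both ratios were below that of any gene of Pol II only. The row YNL114C, a dubious reading frame that completely overlaps RPC19 according to the table, was listed at 160 and 132 TPM. Counting by strand is not stated, so reads of YNL114C and RPC19 cannot be told apart.

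Among the 7 genes of Pol II only, the log2 ratios ran from -0.12 to 0.08, a range that held 19.6% of all rows. Genes shared by all 3 enzymes, which also belong to Pol II, are given below. RPO21 (YDL140C), the largest subunit with the tail that is phosphorylated during transcription, was listed at 26.0 TPM in YPD and 27.3 TPM in YPM, with a log2 ratio of 0.07. RPB2 (YOR151C), the second largest, was listed at 63.1 and 60.4 TPM, with a log2 ratio of -0.06. Both genes of the catalytic core were therefore listed within a few percent of each other between media. The assembly genes were as close, RPB3 (YIL021W) at 39.8 and 42.0 TPM and RPB11 (YOL005C) at 131 and 129 TPM. RPB4 (YJL140W) and RPB7 (YDR404C) encode the stalk, which can leave the enzyme in yeast and serves transcription under stress. RPB4 was listed at 208 and 196 TPM, and RPB7 at 48.0 and 43.9 TPM, the lowest ratio of Pol II only at -0.12. RPB9 (YGL070C), which affects the choice of start site and fidelity, was listed at 32.6 and 30.6 TPM, with a log2 ratio of -0.09. RPO21 and RPB3 were above 0 as deposited, and all 7 genes were above 0 once the median row was set to no change.

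The subunits shared by all 3 enzymes had unlike ratios. RPC10 (YHR143W-A), a small zinc-binding subunit, was listed at 74.1 TPM in YPD and 43.4 TPM in YPM, with a log2 ratio of -0.76. RPB8 (YOR224C) was listed at 87.9 and 58.4 TPM, with a log2 ratio of -0.58. These genes were in the range of the lower genes of Pol III. RPB5 (YBR154C) was listed at 52.0 and 44.6 TPM, with a log2 ratio of -0.22. RPB10 (YOR210W), another zinc-binding subunit, was listed at 216 and 198 TPM, with a log2 ratio of -0.12. RPO26 (YPR187W) was listed at 201 and 197 TPM, with a log2 ratio of -0.03. RPB10 and RPO26 were in the range of Pol II only. The name of RPC10 had put it with Pol III, and RPB8 and RPB5 with Pol II, so grouping by letter would mix them. With all shared subunits counted in each enzyme, the medians were -0.37 for Pol I, -0.09 for Pol II and -0.46 for Pol III.

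**Figure D2:**
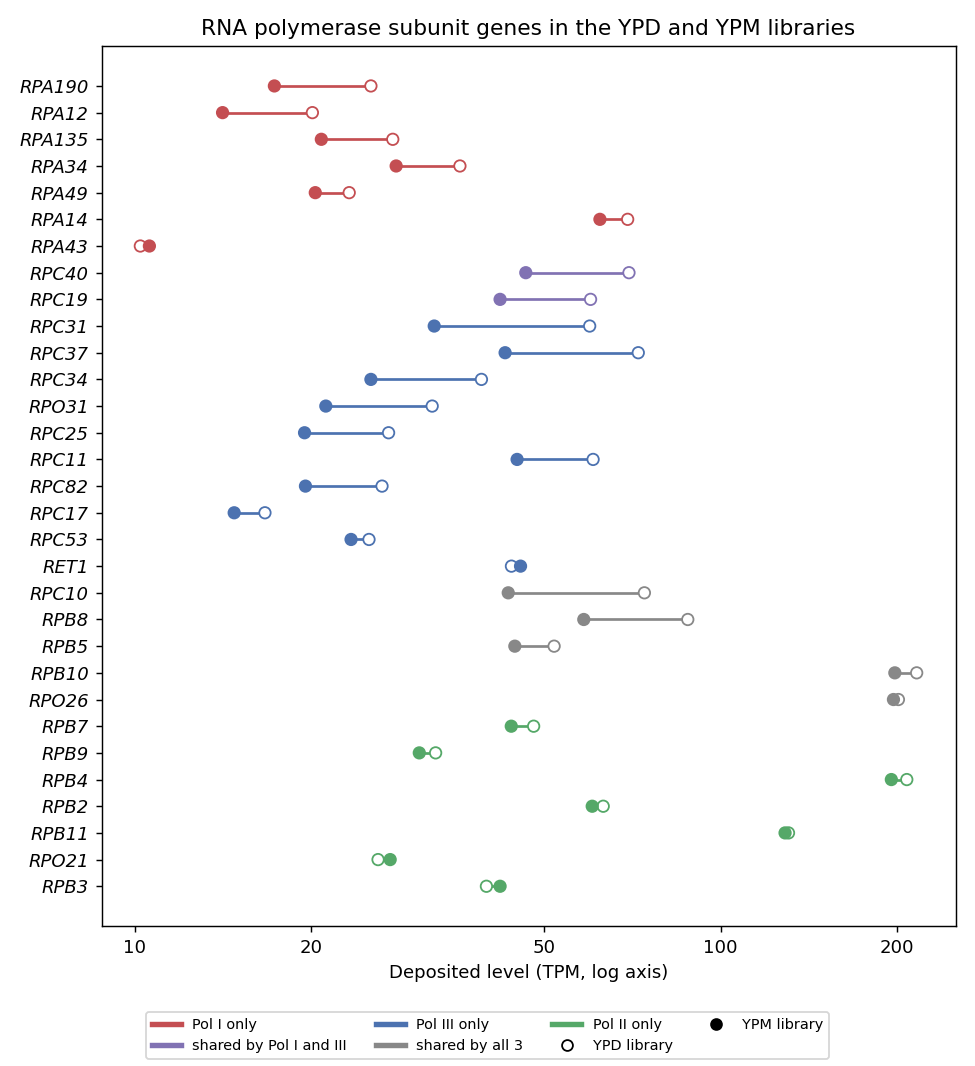
Deposited level in TPM (horizontal log axis) of the 31 subunit genes, 1 gene per line and coloured by class, with open points for the YPD library and filled points for the YPM library. The lines between points are long for RPC31 (59.8 and 32.5 TPM) and RPC37 (72.4 and 42.9 TPM) and short for the genes of Pol II only.

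Levels of subunits of 1 enzyme were not equal in either library. TPM is per length, so levels of genes can be set side by side. How well this holds for genes as short as RPB10, with 213 coding bases, was not tested. In YPD the 31 levels ran from 10.2 TPM for RPA43 to 216 TPM for RPB10, a ratio of 21.2, and in YPM from 10.6 to 198 TPM, a ratio of 18.7. RPB10, RPB4 and RPO26 had the highest levels in both libraries, followed by RPB11. Partners of a stalk differed in level, since RPB4 was listed at 208 TPM and RPB7 at 48.0 TPM in YPD, and RPA14 at 69.4 TPM and RPA43 at 10.2 TPM. The median level in YPD was 25.3 TPM for Pol I only, 35.6 TPM for Pol III only and 48.0 TPM for Pol II only. In YPM these medians were 20.3, 24.4 and 43.9 TPM. Depth is unknown, so no error can be put on any level.

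Corresponding subunits were then set side by side across the enzymes. The largest subunits had log2 ratios of -0.52 in Pol I (RPA190), -0.58 in Pol III (RPO31) and 0.07 in Pol II (RPO21). The Rpb9-like subunits stood at -0.48 for RPA12, -0.42 for RPC11 and -0.09 for RPB9. At these positions, and for the assembly subunits, the genes of Pol I and Pol III were below the gene of Pol II. It was not so for the second largest subunits, where RET1 of Pol III stood at 0.05, above RPB2 of Pol II at -0.06. Nor was it so for the Rpb7-like stalk subunits, where RPA43 of Pol I stood at 0.05 and RPB7 of Pol II at -0.12, with RPC25 at -0.46. The Rpb4-like stalk subunits were close together, at -0.15 for RPA14, -0.16 for RPC17 and -0.09 for RPB4.

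**Figure D3:**
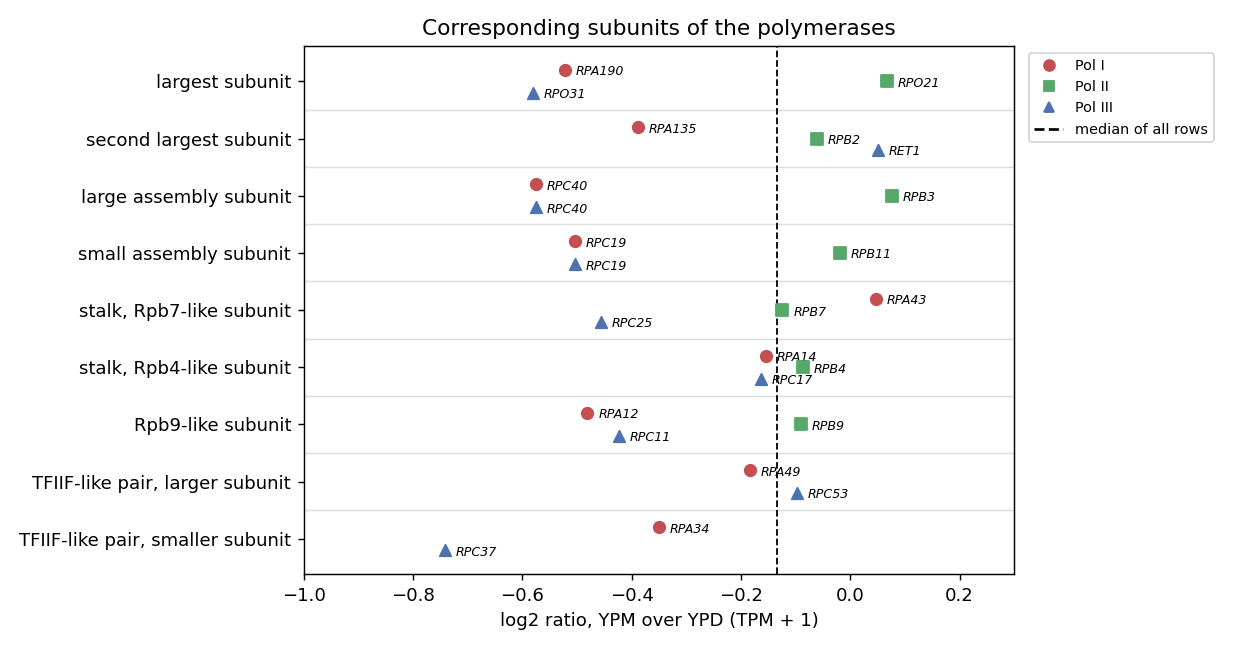
Log2 ratio of YPM over YPD (horizontal axis) of corresponding subunits (lines), with circles for Pol I, squares for Pol II and triangles for Pol III, and the median of all rows as a dashed line. RPC40 and RPC19 appear under both Pol I and Pol III. Pol II points lie between -0.12 and 0.08, while Pol I and Pol III points reach from -0.74 to 0.05.

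The choice of genes did not use the sequence before the coding region. The motifs searched there were picked as known ones of Pol I and III subunit genes, so their counts are no independent finding. The PAC motif is named after RNA polymerases A and C, another naming of I and III, because it was first seen before their subunit genes, and its core reads GATGAG. In yeast it is bound by the repressors Dot6 and Tod6 and is common before ribosome biogenesis genes, often with a second motif, RRPE, whose core AAAATTTT is its own reverse complement and is bound by Stb3. Both motifs were searched on both strands in 250 bases before and 50 bases after the first base of each start codon in RefSeq assembly R64. These windows can reach into neighbouring genes.

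GATGAG was in the windows of 6 of 7 genes of Pol I only, 8 of 10 of Pol III only and both genes shared by Pol I and III. It was in 1 of 7 windows of Pol II only and in none of the 5 of the genes shared by all 3. Of all 6007 windows, 20.4% held it. The copy of Pol II lay in the coding part of RPB2, so in the 250 bases before the start codon the count was 16 of 19 against 0 of 12, and 17.0% over all genes. The longer form GCGATGAG, which contains the core, was in 6 windows, those of RPA49, RPC25, RPC31, RPC82, RPC40 and RPC19, and in 3.93% of all windows. AAAATTTT was in 12 of the 19 windows of Pol I and III and in 4 of the 12 of genes with a place in Pol II, against 9.04% of all windows. Both cores together were in 12 of those 19 windows, in none of the 12, and in 4.38% of all. A match is a description of the letters and no evidence that a factor binds there.

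**Figure D4:**
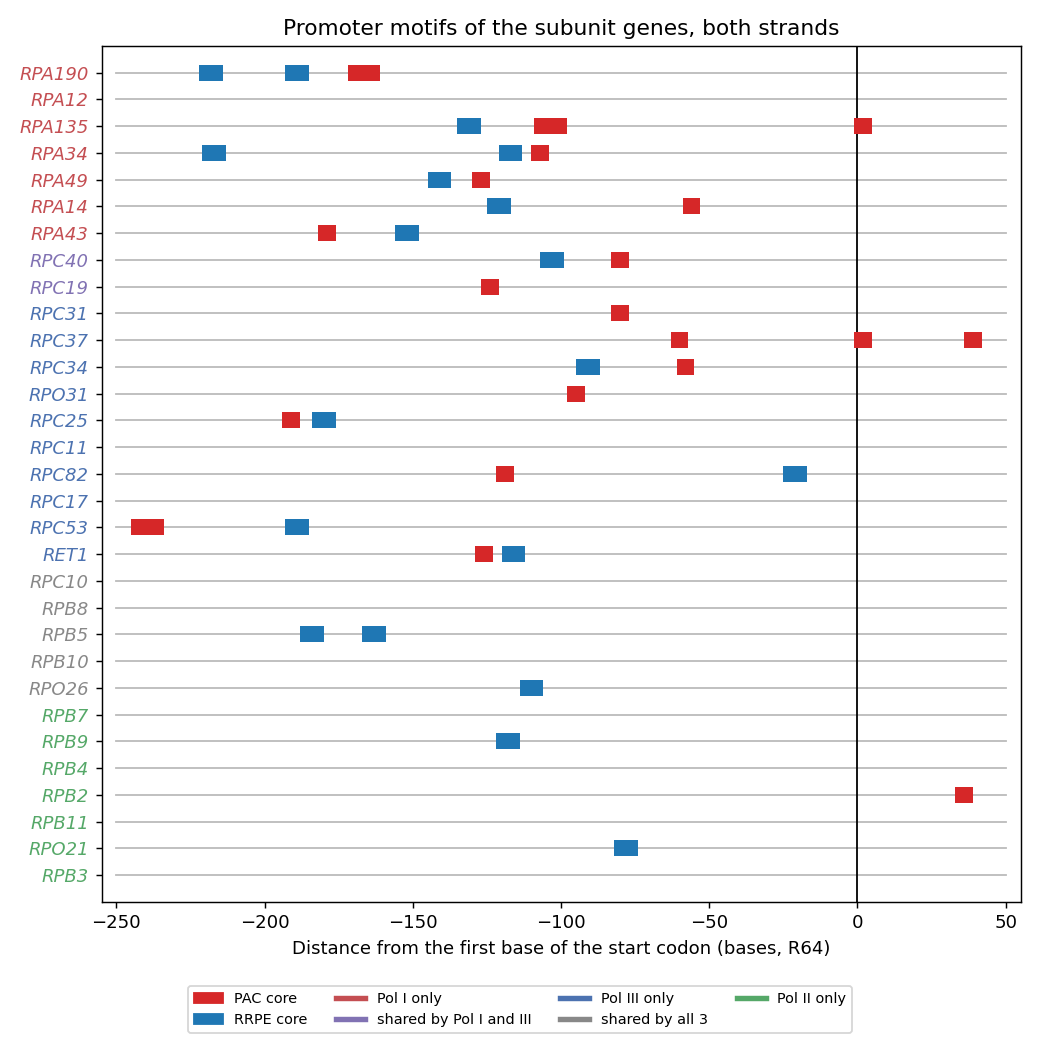
Places of the PAC core (red) and the RRPE core (blue) on either strand in the window of each subunit gene (lines, names coloured by class), against the distance in bases from the first base of the start codon. Red marks before the start codon stand on 16 lines, those of genes of Pol I, of Pol III or of both, and on no line of a gene with a place in Pol II.

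Of the 16 genes with the core before the start codon, RPA34, RPA14, RPA43 and RPC53 are not printed. Their log2 ratios were -0.35, -0.15, 0.05 and -0.10. The stretches around the core are shown for the other 12 genes, those with the longer form first, so that the letters beside it can be compared. Each is read on the strand that gives GATGAG, 5′ to 3′, with the core in capitals.
RPC31 (chrXIV:348589-348614, plus strand): aggttgctgcGATGAGgaaactattt
RPC25 (chrXI:176660-176685, plus strand): aattttaagcGATGAGcatcgcctga
RPC82 (chrXVI:919148-919173, plus strand): ccttcaatgcGATGAGcttttgaaaa
RPC40 (chrXVI:746903-746928, minus strand): aaattattgcGATGAGttgaaagaaa
RPC19 (chrXIV:412634-412659, plus strand): attcacctgcGATGAGctggaaaaaa
RPA49 (chrXIV:182723-182748, minus strand): tttttattgcGATGAGctgaaatttt
RPC37 (chrXI:487697-487722, plus strand): aaaagcgagaGATGAGcttaaatgat
RPC34 (chrXIV:635343-635368, minus strand): gtatttgtgaGATGAGatcattacag
RET1 (chrXV:733571-733596, minus strand): gtaattgtgaGATGAGctgaaaattt
RPO31 (chrXV:544228-544253, plus strand): accaaccagtGATGAGtttaaaaatt
RPA190 (chrXV:960805-960835, minus strand): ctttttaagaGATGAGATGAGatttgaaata
RPA135 (chrXVI:581285-581315, plus strand): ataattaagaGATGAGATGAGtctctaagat

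The first 6 of these lines have gc before the core, which makes the longer form. RPA190 and RPA135 carry overlapping copies of the core, as RPC53 does. Over the 16 genes, 19 copies lay between 53 and 239 bases before the start codon, with a median of 116 bases. Within Pol I and III, the 16 genes with the core had a median log2 ratio of -0.44, and RPA12, RPC17 and RPC11, which lack it, had a median of -0.42. RET1, RPA43 and RPC53 hold the core and had ratios of 0.05, 0.05 and -0.10.

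Longer stretches show where the cores lie in 4 genes: RPC31 with GATGAG alone, RPC40 and RPA190 with both cores, and RPO21 with AAAATTTT alone. Each starts 250 bases before the start codon, leaves out the 60 bases next to it, and is written on the strand of the gene. Capitals mark GATGAG, its reverse complement CTCATC, or AAAATTTT. The largest differences named beside RPC31 and RPA190 are those among genes of Pol III only and of Pol I only.
RPC31, largest difference of Pol III (chrXIV:348582-348771, minus strand): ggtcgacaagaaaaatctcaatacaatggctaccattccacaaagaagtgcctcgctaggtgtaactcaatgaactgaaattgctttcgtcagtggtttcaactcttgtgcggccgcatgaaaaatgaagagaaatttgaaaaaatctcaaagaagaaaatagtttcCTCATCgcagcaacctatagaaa
RPC40, shared by Pol I and III (chrXVI:746896-747085, minus strand): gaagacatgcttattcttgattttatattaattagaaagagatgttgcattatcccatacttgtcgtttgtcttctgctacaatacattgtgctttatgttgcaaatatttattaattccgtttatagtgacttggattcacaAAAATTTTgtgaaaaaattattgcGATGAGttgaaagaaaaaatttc
RPA190, largest difference of Pol I (chrXV:960737-960926, plus strand): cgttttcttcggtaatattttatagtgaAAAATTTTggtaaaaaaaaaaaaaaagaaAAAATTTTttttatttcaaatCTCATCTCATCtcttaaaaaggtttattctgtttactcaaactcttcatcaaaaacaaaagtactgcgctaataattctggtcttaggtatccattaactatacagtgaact
RPO21, largest subunit of Pol II (chrIV:210622-210811, minus strand): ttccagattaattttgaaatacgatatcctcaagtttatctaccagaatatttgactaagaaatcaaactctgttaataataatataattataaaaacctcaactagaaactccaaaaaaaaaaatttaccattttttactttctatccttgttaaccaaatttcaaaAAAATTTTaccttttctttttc

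Other genes with these cores give the background for the subunits. Among 5755 genes with a window and a mean level of 1 TPM or more, the median log2 ratio was -0.13, and 13.5% were lower by 1.5-fold. The 1143 genes that hold GATGAG anywhere in the window, after the start codon included, and encode no subunit had a median of -0.19. Of them, 16.0% were lower by 1.5-fold. For the 229 such genes with GCGATGAG the median was -0.27, with 21.8% lower by 1.5-fold and 2.18% higher. The 247 genes with both GATGAG and AAAATTTT that encode no subunit also had a median of -0.27. Of them, 19.8% were lower by 1.5-fold and 2.43% higher. The 16 subunit genes of Pol I and III with GATGAG, which all hold it before the start codon, were at -0.44, with 3 of 16 lower by 1.5-fold.

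Factors that work with each polymerase were compared by lists, for which all members had a row. In the list of Pol I factors, 1 of 11 genes was lower by 2-fold, 3 were lower by 1.5-fold and none was higher by 1.5-fold, with a median of -0.32. Over all rows these shares were 5.15%, 14.9% and 7.87%. RRN11 (YML043C) was lowest, listed at 12.5 TPM in YPD and 2.19 TPM in YPM, with a log2 ratio of -2.08. RRN3 (YKL125W), which brings Pol I to its promoter, was highest at 19.7 and 29.4 TPM, with a log2 ratio of 0.55. RRN11, RRN6 and RRN7 encode the core factor at the Pol I promoter. RRN6, at -0.75, and RRN7, at -0.57, are named here after their values were seen. The rest of the list was mixed. RRN5 stood at -0.59, HMO1 at -0.54, RRN10 at -0.32, REB1 at -0.16, RRN9 at -0.09, NSI1 at 0.14 and UAF30 at 0.20. RRN5, RRN7 and RRN11 had mean levels under 10 TPM, and without them the median of the list was -0.13.

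In the list of Pol III factors, none of 11 genes was past 1.5-fold, with a median of -0.18. Of all rows, 14.9% were lower and 7.87% higher by 1.5-fold. Below the median of all rows, -0.13, were 7 of the 11 genes, against 50% of all rows. BRF1 (YGR246C), the subunit of TFIIIB that contacts Pol III, was lowest with 71.5 TPM in YPD and 51.6 TPM in YPM, with a log2 ratio of -0.46. PZF1 (YPR186C), the factor for the small ribosomal RNA genes, was highest at 0.45. MAF1 (YDR005C), the repressor of Pol III, was chosen for that role and stood at -0.12. The Pol II general factors had a median of -0.02 over 18 genes, with none past 1.5-fold, from TFA1 (YKL028W), a subunit of TFIIE, at -0.48 to TAF14 (YPL129W), a subunit of TFIIF and TFIID, at 0.40. The 19 Pol II elongation and tail factors had a median of -0.09, from ELF1 (YKL160W), an elongation factor and the 1 gene lower by 1.5-fold, at -0.63 to CTK3 (YML112W), of the tail kinase, at 0.43. With the median row set to no change, the medians of both Pol II lists were above 0, at 0.11 and 0.05.

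The 7 genes for assembly and import of polymerases had a median of -0.33, from RBA50 (YDR527W), an assembly factor of Pol II and the 1 gene lower by 1.5-fold, at -0.62 to IWR1 (YDL115C), which serves import of Pol II, at 0.10. The 9 regulators of ribosome and polymerase genes had a median of -0.25. TOR1 (YJR066W), a kinase of nutrient signalling, was lowest and the 1 gene lower by 1.5-fold, with 19.1 TPM in YPD and 10.8 TPM in YPM, with a log2 ratio of -0.77, and SFP1 (YLR403W), an activator of these genes, was highest at 0.16. Of all rows, 14.9% were lower by 1.5-fold, so 1 gene of 7 and 1 gene of 9 are no result about these lists. DOT6 (YER088C) and TOD6 (YBL054W), chosen here because their proteins bind the PAC motif, stood at 0.09 and 0.10, and STB3 (YDR169C) at -0.34.

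The subunit genes lie on 10 chromosomes, and their coding lengths run from 213 bases (RPC10 and RPB10) to 5202 bases (RPO21). Only RPO26 has more than 1 coding exon. None of the 31 coding sequences shares a word of 50 bases with another place in R64. Across the 31 genes, Spearman's rho of log2 ratio and coding length was 0.11, a description over genes of the same 2 libraries. RPA190 and RPA43 are neighbours on chromosome XV that are read away from each other with 804 bases between their start codons, and had ratios of -0.52 and 0.05. Besides RPC19, dubious frames named in the table overlap RPC53 (YDL151C, listed at 19.6 and 13.3 TPM) and RPB3 (YIL020C-A, at 17.1 and 13.3 TPM), and their part in these values was not tested. The rows that overlap RPC34 and RPA14 were listed at 0.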

How the data were processed

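RNA of strain BL03-D-4 was measured by the authors in polyA-selected libraries, 1 grown in YPD and 1 in YPM. The labels name HISAT2, StringTie and RSEM without versions or roles. Per the methods, the authors deposited TPM estimated by RSEM, scaled per gene length and library. Genome build, annotation, read length and use of strand are not given in the sources used here. TPM keeps no depth, so no interval or detection limit was computed, and with 1 library per medium no test was run. The column MYPD was read as YPM, the short name of modified YPD in the labels.

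The log2 ratio of YPM over YPD was taken after adding 1 TPM. The 6350 rows whose mean reached 1 TPM gave the background. Every subunit is named. Of each list of related factors, the largest rise and fall and any gene past 2-fold are named, and of the Pol I factors every gene. Members and lists were chosen with earlier results of these data known. RefSeq (assembly R64) gave symbols for 6044 rows, places, coding sequences and upstream regions. It may differ from the authors' reference. Sequences that reads of 50 bases could not tell apart were sought as words of that length. Alternatives were pseudocounts of 0.1 and 5 TPM or none, other minimum means, other scalings, mRNA rows only and enzymes with their shared subunits. The count in the lowest 25% of rows, the count below the median and the background over rows of like TPM were added after the values were seen. Simulated data served only to check that the computation ran correctly. They held folds larger than any of the subunits and motifs planted in sequences of A and C, so they tell nothing about differences this small. Computations ran in Python 3.11.15 with matplotlib 3.10.9, numpy 2.4.6 and pandas 2.3.3.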

Additional observations from a re-analysis of the deposited data

How the results depend on the processing

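With 1 library per medium and no counts, neither depth nor spread limits can be given, and values near a fold limit can fall on either side. Setting the median row to no change moved the median of all rows to -0.0027. It moved the medians to -0.22 for Pol I only, 0.072 for Pol II only, -0.31 for Pol III only, -0.41 for those shared by Pol I and III and -0.085 for those shared by all 3. For the lists of factors it gave -0.19 (Pol I), -0.044 (Pol III), 0.11 (Pol II general), 0.045 (Pol II elongation and tail), -0.20 (assembly and import) and -0.12 (regulators). A mean of at least 10 TPM moved the median of the Pol I factors to -0.13. Without a pseudocount, 7 instead of 4 subunits were lower by 1.5-fold (22.6% against 15.5% of rows). With 5 TPM added, 3.20% instead of 5.15% of rows were lower by 2-fold. The other 148 values over groups and lists stayed within 0.1 on the log2 scale or within 1.5 times of a count. Among rows of like mean TPM, 12.6% were lower and 5.49% higher by 1.5-fold. As deposited, where the median of all rows was -0.13, 4 of 31 subunits were above 0, and 12 were after the median row was set to no change. No paired analysis was possible because each medium has 1 library.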

Other observations

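Some products of RNA polymerases I and III have rows of their own, although the libraries were selected for polyA tails and most of these RNAs carry none. Of the spacers of the Pol I precursor, 3 were listed lower in YPM and 1 higher. ETS1-1 was listed at 212 TPM in YPD and 131 TPM in YPM and ITS2-1 at 156 and 77.7 TPM. ITS1-1 was listed at 45.0 and 33.8 TPM, and ETS2-1 at 0 and 3.27 TPM. The row of the precursor, RDN37-1, was listed at 4.40 and 6.06 TPM, far below ETS1-1 and ITS2-1, which are parts of it. How reads were divided among rows of the same place is not stated, so this row cannot be read as the level of the precursor. The mature parts were listed with RDN18-1 at 1681 and 1620 TPM, RDN25-1 at 1716 and 1581 TPM, and RDN58-1 at 3219 and 5666 TPM. Each second copy held the same value as the first. Of Pol III products, SCR1, the RNA of the signal recognition particle, was listed at 76.7 and 111 TPM, and RPR1, the RNA of RNase P, at 7.91 and 32.1 TPM. The rows RDN5-1 to RDN5-6, for the small ribosomal RNA made by Pol III, and the row snR6, also a Pol III product, were listed at 0 in both libraries. So were all 299 rows for transfer RNAs.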
